A study of Drosophila melanogaster with 8 samples.

Results

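Cytochrome P450 genes were followed in RNA-seq data from intestines of adult female Drosophila melanogaster that fed on N-acetyl-D-glucosamine (GlcNAc). They were the rows of the deposited table whose gene symbol has the form Cyp, family number, subfamily letter and gene number, and 60 of the 7671 genes in the table met this rule. P450 genes with other symbols, such as shd, fall outside it and are not in the counts by clan or family. The BDGP6 annotation holds 85 genes with such a symbol, and the other 25 have no values in the table, which lists only genes over a low expression limit. By FlyBase identifier 59 of the 60 matched a P450 gene of the annotation, and Cyp6a21 matched by symbol only. Flies of the GlcNAc group were 7-day-old mated females that spent 24 hours on food diluted to 0.25 of the maintenance strength with 0.1 M GlcNAc, a sugar that feeds the hexosamine biosynthesis pathway. Control flies had the same age, sex and diluted food without GlcNAc. Each condition had 4 libraries from independent samples. The source label of all 8 samples reads whole larvae and the treatment label of the 4 GlcNAc samples glucosamine, but the protocols, which name adult intestines and GlcNAc, were followed. How many intestines went into a sample is not given in the sources used here. Both groups carried the transgenes of a clonal labelling (MARCM) stock, namely UAS-mCD8::GFP, a heat-shock FLP recombinase (hsFLP) and 1 copy of tub-GAL4, and FRT82B on both homologues, 1 of which also held tub-GAL80. The tubulin promoter is active in most tissues, and RNA was taken from the whole intestine rather than from labelled clones. The comparison addresses which transcripts of the intestine differ when a calorie-restricted diet is supplemented with GlcNAc.

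Cytochrome P450 enzymes are heme proteins that insert 1 oxygen atom into a substrate and need electrons from a partner protein. Microsomal P450 enzymes receive them from NADPH-P450 reductase (Cpr), at times with cytochrome b5, and mitochondrial ones from a ferredoxin and its reductase. Insect P450 genes fall into 4 clans. The CYP3 clan (in the fly Cyp6, Cyp9, Cyp28 and relatives) is best known for the oxidation of plant toxins and insecticides. The CYP4 clan is known for fatty acid and hydrocarbon metabolism. The mitochondrial and CYP2 clans both hold enzymes of ecdysteroid metabolism, and the mitochondrial clan also holds the insect Cyp12 family. The midgut, together with the Malpighian tubules and the fat body, is a main site of P450 expression in insects. The 60 genes comprised 28 of the CYP3 clan, 22 of the CYP4 clan, 8 of the mitochondrial clan and 2 of the CYP2 clan, assigned by family number.

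The libraries held 9281492 to 10326189 reads on the listed genes for GlcNAc and 8839877 to 9838415 for controls. Values are given in CPM (read counts scaled to a common library size), computed back from the deposited log2 CPM. Replicates of a condition differed by more than counting error, with a chi-square per degree of freedom of 9.99 to 69.1 over pairs. A gene was called at an adjusted p of 0.05 in limma, with the adjustment made over all 7671 genes. Because whole intestines were sequenced, more cells of a type and more RNA per cell cannot be told apart.

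On GlcNAc 22 of the 60 P450 genes rose and 7 fell, and 31 did not pass the test. These were 36.7% and 11.7% of the P450 genes, while 8.75% of all genes tested were called higher and 6.6% lower. At a change of at least 2-fold, 10 P450 genes were higher and 4 were lower, where 1.72% and 0.952% of all genes were. The median log2 fold change over all 60 P450 genes was 0.31 and that of all genes was 0.01. The P450 median fell to 0.18 without control replicate 3 and to 0.21 with 2 CPM added to every value. It includes 5 genes, named below, that entered the table only through GlcNAc. Their log2 fold changes were all positive (0.57 to 1.49) and raised the median, which was not computed without them. Of the 29 called genes, 28 had all 4 GlcNAc libraries on one side of all 4 control libraries, and Cyp6a20 was the exception. The test itself favours genes with such separation, and the separated share of all called genes was not computed. Counting uncalled genes, 30 of the 60 P450 genes had such separated libraries, against a background of 20.5% of all genes.

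The table lists a gene if it was over 1 CPM in at least 3 libraries of 1 condition. Cyp4aa1, Cyp4e3, Cyp4p3, Cyp6a18 and Cyp6g2 met this limit only on GlcNAc and no P450 gene met it only in controls. Among the 55 P450 genes that met it in both conditions, 20 rose and 7 fell, where 8.64% and 6.68% of the 7423 genes of this kind were called. At least 2-fold changes numbered 8 increases and 4 decreases among these 55, where 1.37% and 0.849% of such genes had them. Among the 45 P450 genes with a mean of at least 10 CPM, 20 rose and 6 fell, with a background of 11.2% and 8.9% in the 5560 genes at that level. Split by clan, 15 of 28 CYP3 genes rose and 1 fell, 4 of 8 mitochondrial genes rose and 0 fell, 3 of 22 CYP4 genes rose and 6 fell, and neither of the CYP2 genes was called. Among genes that met the limit in both conditions the counts were 14 higher and 1 lower of 26 CYP3 genes and 2 higher and 6 lower of 19 CYP4 genes, with the other clans as before. These counts leave out shd, a mitochondrial P450 under another symbol, which was called lower (log2 fold change -1.73, adjusted p = 0.0011). The difference between clans was not tested, as members of a clan are not replicates.

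**Figure D1:**
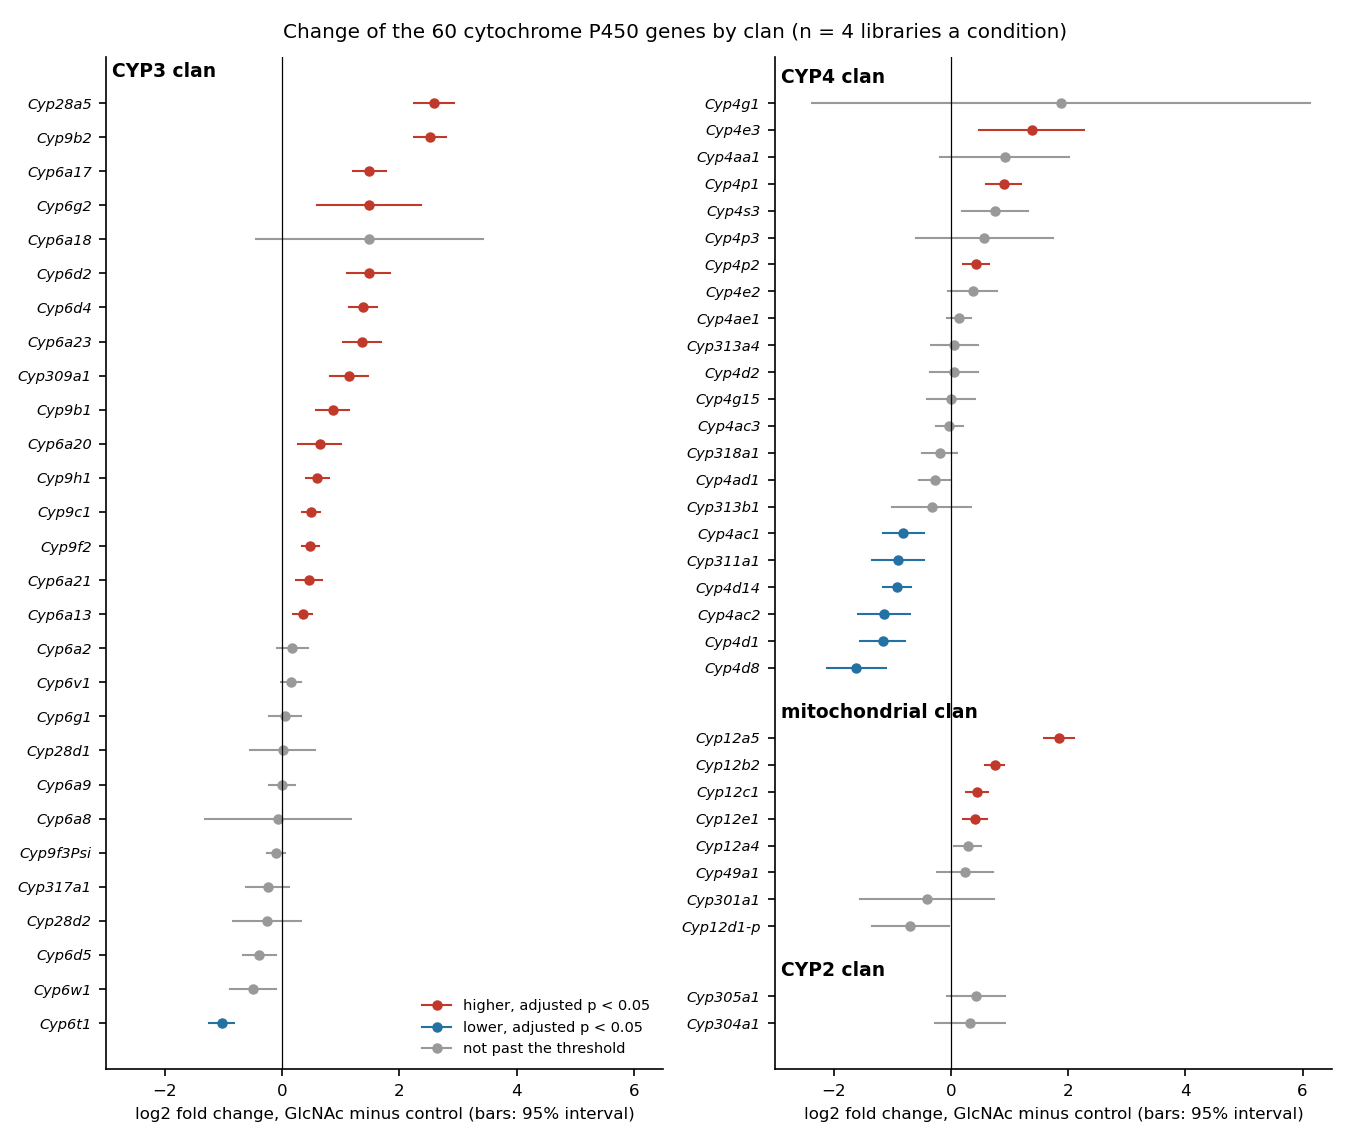
Log2 fold change of each of the 60 P450 genes, GlcNAc minus control, with its 95% interval, grouped by clan (n = 4 libraries a condition). Red points are the 22 genes called higher and blue points the 7 called lower. Increases were led by Cyp28a5 and Cyp9b2 of the CYP3 clan, and 6 of the 7 decreases belonged to the CYP4 clan.

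The largest increase in the family was that of Cyp28a5 (FBgn0028940, arm 2L, 13977302 to 13979569, plus strand). The Cyp28 family was described in cactus-feeding Drosophila, where its members respond to plant alkaloids. Cyp28a5 had 2108, 1561, 2674 and 2021 CPM in the GlcNAc libraries, against 315, 402, 297 and 354 CPM in the control libraries. The lowest GlcNAc library was far above the highest control library, a 6.05-fold difference (log2 fold change 2.60 ± 0.15 SE, adjusted p = 7.98e-06). By log2 fold change Cyp28a5 ranked 17 of 7671 genes from the highest. The other Cyp28 genes did not pass the test. Cyp28d1 ranged from 267 to 475 CPM in the GlcNAc libraries and 229.8 to 514 CPM in the control libraries, an overlap that left a log2 fold change of 0.01 with a 95% interval of -0.55 to 0.57. Cyp28d2 averaged 1.90 ± 0.284 CPM on GlcNAc and 2.34 ± 0.745 CPM in controls (SD, n = 4).

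Cyp9b2 (FBgn0015039, arm 2R, 7130277 to 7132139, minus strand) was the most abundant P450 transcript on GlcNAc. It had 3308, 3047, 3855 and 2822 CPM in the GlcNAc libraries, against 581, 672, 474 and 542 CPM in the control libraries. These groups did not overlap and differed 5.75-fold (log2 fold change 2.52 ± 0.13 SE, adjusted p = 3.88e-06). The increase placed Cyp9b2 at rank 25 of 7671 genes by CPM on GlcNAc, against rank 273 in controls. Its neighbour Cyp9b1, the other gene of the subfamily, averaged 104 ± 10.9 CPM on GlcNAc and 57.7 ± 10.5 CPM in controls (SD, n = 4) and rose 1.82-fold (log2 fold change 0.86 ± 0.13 SE, adjusted p = 0.00144). The remaining Cyp9 genes showed smaller increases of the same sign, apart from 1. Cyp9h1 rose by 0.60, Cyp9c1 by 0.49 and Cyp9f2 by 0.48 on the log2 scale, with adjusted p values of 0.00132, 0.00126 and 0.0011. Cyp9f2, the fifth P450 transcript by CPM on GlcNAc, was at 839.9 to 868 CPM in the GlcNAc libraries and 561 to 664 CPM in the control libraries. Cyp9f3Psi, named a pseudogene in the table but a protein-coding gene in the annotation, averaged 51.1 ± 3.91 CPM on GlcNAc and 54.7 ± 1.85 CPM in controls (SD, n = 4; adjusted p = 0.393). In all, 5 of the 6 Cyp9 genes rose, while 8.75% of all genes did.

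The Cyp6 family, with 17 genes the largest of the CYP3 clan, had 8 increases and 1 decrease, beside 8.75% and 6.6% of all genes. Among the increases Cyp6g2 met the expression limit of the table only on GlcNAc. Cyp6a17 (FBgn0015714, arm 2R, 14873953 to 14875739, plus strand), a gene linked to temperature preference and to pyrethroid tolerance in flies, had 185, 158, 179 and 144 CPM in the GlcNAc libraries, against 54.0, 71.6, 48.1 and 65.8 CPM in the control libraries. Cyp6a23 (FBgn0033978, arm 2R, 14875829 to 14877654, plus strand), which lies directly beside it, had 541, 547, 584 and 469 CPM in the GlcNAc libraries, against 192, 282, 162 and 212 CPM in the control libraries. For both genes the 4 GlcNAc values lay above all 4 control values, 2.80-fold for Cyp6a17 (log2 fold change 1.49 ± 0.13 SE, adjusted p = 6.26e-05) and 2.57-fold for Cyp6a23 (log2 fold change 1.36 ± 0.15 SE, adjusted p = 0.000251). They are tandem copies, and how well the authors' counting separated their reads was not tested here.

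Of the Cyp6d genes, Cyp6d4 (FBgn0039006, arm 3R, 22698319 to 22700307, plus strand) had 416, 470.1, 532 and 389 CPM in the GlcNAc libraries, against 152, 191, 169 and 180.2 CPM in the control libraries. Cyp6d2 (FBgn0034756, arm 2R, 22652573 to 22654530, minus strand) had 122, 128, 129 and 127 CPM in the GlcNAc libraries, against 46.1, 67.5, 35.5 and 38.9 CPM in the control libraries. Both sets of libraries were apart, with Cyp6d2 almost constant on GlcNAc, and the differences were 2.60-fold (log2 fold change 1.38 ± 0.10 SE, adjusted p = 2.82e-05) and 2.79-fold (log2 fold change 1.48 ± 0.17 SE, adjusted p = 0.000314). Their relative Cyp6d5 (FBgn0038194, arm 3R, 14029228 to 14031483, plus strand), the most abundant P450 transcript in controls, was not called. It had 1808, 1749, 1402 and 1473 CPM in the GlcNAc libraries, against 1770.2, 2431, 1953 and 2298 CPM in the control libraries, and the groups overlapped (log2 fold change -0.39 ± 0.13 SE, adjusted p = 0.0639). Cyp6d5 passed the threshold as lower without control replicate 1 (log2 fold change -0.47, adjusted p = 0.0366) and under quantile normalization (adjusted p = 0.0425).

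Cyp309a1 (FBgn0031432, arm 2L, 2562483 to 2564830, minus strand) of the CYP3 clan had 361, 405, 371 and 317 CPM in the GlcNAc libraries, against 120.1, 186, 159 and 205 CPM in the control libraries. It was 2.21-fold higher without overlap (log2 fold change 1.14 ± 0.15 SE, adjusted p = 0.000742). Cyp6g2 (FBgn0033696, arm 2R, 12188338 to 12190377, minus strand) had 1.59, 1.10, 1.38 and 1.10 CPM in the GlcNAc libraries, against 0.365, 0.280, 0.613 and 0.688 CPM in the control libraries. That is 2 to 15 reads a library, so its call (log2 fold change 1.49 ± 0.40 SE, adjusted p = 0.031) rests on few reads and on the condition through which it entered the table. The call of Cyp6g2 was lost without GlcNAc replicate 1, 2, 3 or 4 or control replicate 1 or 2, with adjusted p values of 0.051 to 0.0948.

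The other Cyp6 increases were below 2-fold. Cyp6a20, which is known for its effect on male aggression, averaged 36.2 ± 7.69 CPM on GlcNAc and 23.1 ± 3.76 CPM in controls (SD, n = 4; log2 fold change 0.64 ± 0.16 SE, adjusted p = 0.0244). The call of Cyp6a20 was lost without GlcNAc replicate 1 (adjusted p = 0.0649) or without control replicate 1 (0.0506), 3 (0.0637) or 4 (0.0522). Cyp6a21 rose by 0.46 and Cyp6a13 by 0.35 on the log2 scale, with adjusted p values of 0.0122 and 0.00816. The 1 decrease was that of Cyp6t1, at 54.2, 59.6, 47.1 and 45.6 CPM in the GlcNAc libraries, against 101, 116, 94.7 and 109 CPM in the control libraries. Its groups were 2.04-fold apart (log2 fold change -1.03 ± 0.10 SE, adjusted p = 0.000115). Cyp6t1 lies wholly inside a long non-coding RNA annotated on the same strand, CR45082, whose mean was 1.04 ± 0.269 CPM on GlcNAc and 1.21 ± 0.200 CPM in controls (SD, n = 4). Reads of such a pair cannot be told apart by strand, so the level of Cyp6t1 is uncertain.

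Cyp6g1, Cyp6a2 and Cyp6a8, known from insecticide-resistant fly strains, did not pass the test. Cyp6g1, which confers tolerance of DDT and neonicotinoids when overexpressed, had 308, 272, 256 and 235 CPM in the GlcNAc libraries, against 217, 244, 260.5 and 322 CPM in the control libraries. These libraries overlapped widely, and the 95% interval of the log2 fold change was -0.22 to 0.31. Cyp6a2, likewise tied to DDT tolerance, averaged 289.6 ± 34.0 CPM on GlcNAc and 257 ± 36.9 CPM in controls (SD, n = 4; adjusted p = 0.382). Cyp6a2 lies within Epac on the same strand, and Epac itself was not called (adjusted p = 0.379). Cyp6a8 was at 2.03 to 11.3 CPM in the GlcNAc libraries and 3.19 to 13.9 CPM in the control libraries, and was not called. Cyp6a18 (1 to 37 reads) and Cyp6w1 (17.7 ± 3.11 CPM on GlcNAc and 25.1 ± 5.58 CPM in controls) were not called with all libraries. Without control replicate 1, Cyp6a18 passed as higher (log2 fold change 2.34, adjusted p = 0.0458) and Cyp6w1 as lower (-0.64, adjusted p = 0.0284).

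**Figure D2:**
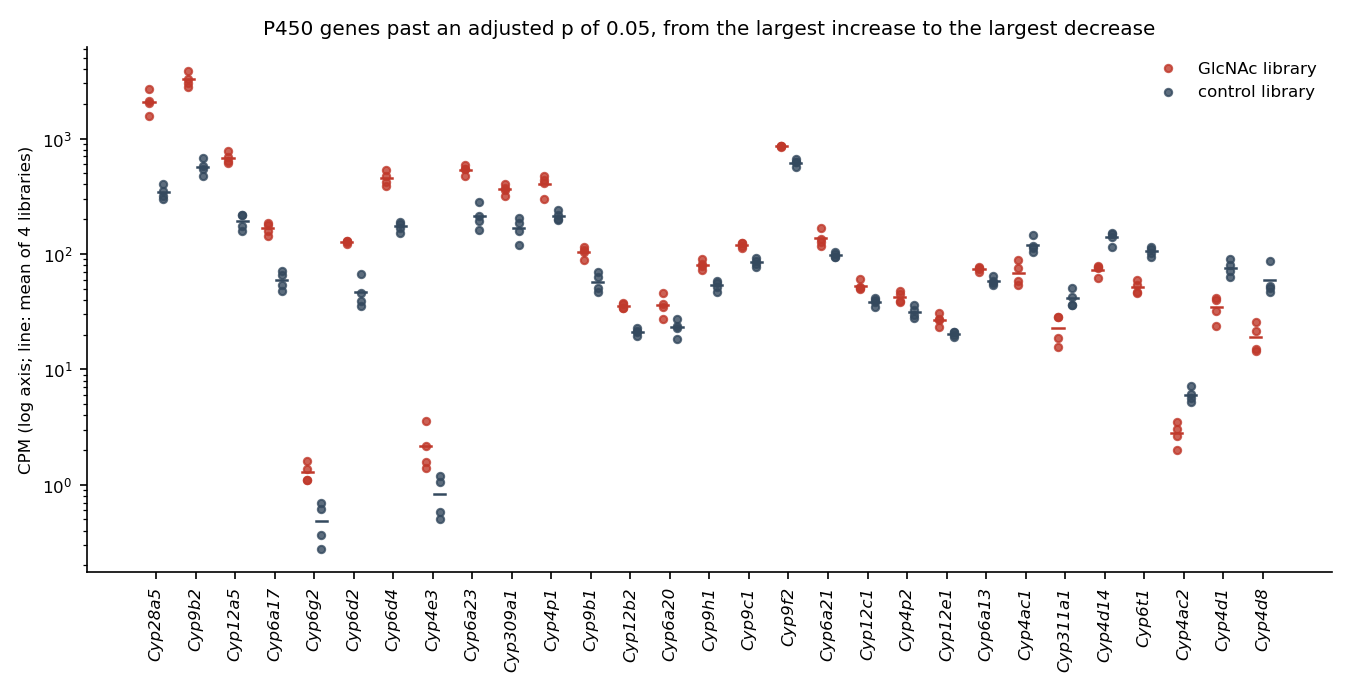
CPM on a log axis in each of the 4 GlcNAc libraries (red) and 4 control libraries (dark blue) for the 29 called P450 genes, ordered from the largest increase to the largest decrease; lines are means. The libraries of the 2 conditions are apart for 28 of the 29 genes, which the test itself favours, and Cyp6g2 and Cyp4e3 lie near 1 CPM.

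In the mitochondrial clan the 4 increases were all in the Cyp12 family. Cyp12a5 (FBgn0038680, arm 3R, 19132648 to 19134704, plus strand) had 777, 693, 636 and 617 CPM in the GlcNAc libraries, against 157, 217, 175 and 215 CPM in the control libraries. The groups were well apart, 3.58-fold higher on GlcNAc (log2 fold change 1.84 ± 0.12 SE, adjusted p = 1.38e-05). Cyp12a4, its neighbour 453 bases downstream, is a gene tied to resistance against the insect growth regulator lufenuron. It had 1115, 1091, 981 and 1021 CPM in the GlcNAc libraries, against 735, 1008, 800.0 and 934 CPM in the control libraries. With overlapping libraries Cyp12a4 did not pass the threshold (log2 fold change 0.28 ± 0.10 SE, adjusted p = 0.0976). It passed when libraries were scaled by their totals alone (adjusted p = 0.0353) and without control replicate 2 (log2 fold change 0.36, adjusted p = 0.0374).

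Cyp12b2 had 36.7, 34.3, 34.0 and 37.7 CPM in the GlcNAc libraries, against 19.4, 22.6, 21.7 and 21.2 CPM in the control libraries, a 1.68-fold increase with little spread (log2 fold change 0.75 ± 0.08 SE, adjusted p = 0.000156). Cyp12c1 averaged 52.8 ± 4.88 CPM on GlcNAc and 38.6 ± 3.09 CPM in controls and Cyp12e1 averaged 26.9 ± 3.09 CPM on GlcNAc and 20.2 ± 0.914 CPM in controls (SD, n = 4), with log2 fold changes of 0.45 and 0.41. Both of these passed the test, with adjusted p values of 0.00569 and 0.0143. Cyp12d1-p, another gene linked to DDT tolerance, had 1.70, 0.887, 1.27 and 1.58 CPM in the GlcNAc libraries, against 1.72, 2.29, 1.73 and 3.02 CPM in the control libraries. It was not called (log2 fold change -0.69 ± 0.30 SE, adjusted p = 0.161), and Cyp12d1-p has a near-identical copy, Cyp12d1-d, not analysed here, so its reads may belong to either. Cyp301a1, which acts in cuticle formation, and Cyp49a1 were not called, with log2 fold changes of -0.40 and 0.24.

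In the CYP4 clan 3 of 22 genes rose and 6 fell, beside 8.75% and 6.6% of all genes, and the median log2 fold change was 0.03. This median includes Cyp4aa1 (0.91), Cyp4e3 (1.38) and Cyp4p3 (0.57), which met the expression limit only on GlcNAc. They raised it, and it was not computed without them. Of the 19 CYP4 genes that met the expression limit in both conditions 2 rose and 6 fell, Cyp4e3 being the increase left out. Of 4 Cyp4d genes 3 fell. Cyp4d8 (FBgn0015033, arm 3L, 7493557 to 7496197, minus strand) had 21.7, 25.5, 14.5 and 15.1 CPM in the GlcNAc libraries, against 50.4, 86.5, 46.4 and 52.4 CPM in the control libraries. Cyp4d1 (FBgn0005670, arm X, 2159145 to 2162180, minus strand) had 40.2, 41.1, 23.9 and 32.3 CPM in the GlcNAc libraries, against 70.8, 90.6, 63.2 and 79.6 CPM in the control libraries. In both genes the 4 GlcNAc values lay below all 4 control values, 3.06-fold for Cyp4d8 (log2 fold change -1.61 ± 0.23 SE, adjusted p = 0.00112) and 2.24-fold for Cyp4d1 (log2 fold change -1.17 ± 0.17 SE, adjusted p = 0.00145). Cyp4d14 had 76.7, 61.4, 75.6 and 78.3 CPM in the GlcNAc libraries, against 114, 141, 149 and 152 CPM in the control libraries, 1.90-fold lower (log2 fold change -0.93 ± 0.11 SE, adjusted p = 0.000378). Cyp4d2, between Cyp4d14 and Cyp4ae1 on the X chromosome, was at 21.3 to 34.8 CPM in the GlcNAc libraries and 19.1 to 32.3 CPM in the control libraries and was not called.

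Of 3 Cyp4ac genes 2 fell as well, where 6.6% of all genes were called lower. Cyp4ac1 averaged 69.0 ± 16.4 CPM on GlcNAc and 119.6 ± 17.3 CPM in controls and Cyp4ac2 averaged 2.79 ± 0.639 CPM on GlcNAc and 6.04 ± 0.855 CPM in controls (SD, n = 4), with log2 fold changes of -0.81 and -1.14 and adjusted p values of 0.00667 and 0.0039. Cyp4ac2 had 19 to 64 reads a library. Their neighbour Cyp4ac3 had 58.7 ± 7.78 CPM on GlcNAc and 59.7 ± 5.63 CPM in controls (SD, n = 4) and was not called, with a 95% interval of -0.26 to 0.20 for its log2 fold change. The Cyp4ac genes lie within tkv, a receptor gene on the opposite strand, which was itself lower on GlcNAc at 187 ± 12.1 CPM, against 248 ± 29.4 CPM in controls (log2 fold change -0.40 ± 0.09 SE, adjusted p = 0.0124). Counting used strand, and whether reads crossed over was not tested. The last decrease was that of Cyp311a1, which has been linked to lipid handling and microvilli in the anterior midgut. Cyp311a1 had 28.2, 28.4, 15.64 and 18.6 CPM in the GlcNAc libraries, against 36.0, 50.8, 36.2 and 42.5 CPM in the control libraries, 1.86-fold lower (log2 fold change -0.90 ± 0.20 SE, adjusted p = 0.0125).

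The 3 increases of the clan were in Cyp4p1, Cyp4p2 and Cyp4e3. Cyp4p1 had 438, 298, 470.1 and 410.4 CPM in the GlcNAc libraries, against 241, 197, 218 and 201 CPM in the control libraries, 1.86-fold higher (log2 fold change 0.90 ± 0.13 SE, adjusted p = 0.0014). Cyp4p2 averaged 42.4 ± 4.62 CPM on GlcNAc and 31.5 ± 3.59 CPM in controls (SD, n = 4; log2 fold change 0.43 ± 0.10 SE, adjusted p = 0.0184). The call of Cyp4p2 was lost without GlcNAc replicate 1 (adjusted p = 0.0545) or control replicate 3 (0.0512). Cyp4e3 (FBgn0015035, arm 2L, 9747839 to 9750071, minus strand) had 3.55, 1.41, 1.58 and 2.15 CPM in the GlcNAc libraries, against 1.198, 1.06, 0.501 and 0.582 CPM in the control libraries. That is 4 to 34 reads, with the libraries of the conditions just apart (log2 fold change 1.38 ± 0.40 SE, adjusted p = 0.0445). The call of Cyp4e3 was lost without GlcNAc replicate 1, 3 or 4 and without control replicate 2, 3 or 4 (adjusted p 0.0504 to 0.128), and with a pseudocount of 2 CPM or quantile normalization.

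Cyp4g1, the oxidative decarbonylase that makes cuticular hydrocarbons in oenocytes, varied more between replicates than any other P450 gene. It had 9.21, 98.0, 199 and 13.7 CPM in the GlcNAc libraries, against 6.20, 86.5, 0.167 and 151 CPM in the control libraries. The libraries ranged over 1 to 1949 reads, high and low libraries occurred in both conditions, and no difference was called (log2 fold change 1.88 ± 1.91 SE, adjusted p = 0.592). Without control replicate 3 its log2 fold change turned to -0.13. Summed CPM of the listed fat body markers Yp1, Yp3 and apolpp were 135, 334, 111 and 102 in the GlcNAc libraries, against 23.5, 651, 218 and 275 in the control libraries. Their part in the spread of Cyp4g1 was not tested. CG32816, annotated over the same bases and strand as Cyp4g1, was not analysed here.

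The other 10 uncalled CYP4 genes had log2 fold changes from -0.32 (Cyp313b1) to 0.91 (Cyp4aa1, 2 to 12 reads). Cyp4s3 came closest to the threshold, at 25.7 to 41.8 CPM in the GlcNAc libraries and 10.7 to 25.9 CPM in the control libraries (log2 fold change 0.76 ± 0.25 SE, adjusted p = 0.0759). Cyp4ae1, the most abundant of these by mean over all libraries, averaged 175 ± 22.3 CPM on GlcNAc and 159 ± 5.87 CPM in controls (SD, n = 4). Cyp4ad1 came next and averaged 86.5 ± 5.51 CPM on GlcNAc and 106 ± 19.7 CPM in controls (SD, n = 4). Over the whole family, Cyp6v1 and Cyp12d1-p were the uncalled genes whose conditions did not overlap. Cyp6v1 averaged 20.6 ± 0.816 CPM on GlcNAc and 18.6 ± 0.958 CPM in controls (SD, n = 4; log2 fold change 0.15 ± 0.08 SE, adjusted p = 0.245).

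The CYP2 clan was represented by Cyp304a1 and Cyp305a1. Cyp304a1 averaged 1.89 ± 0.210 CPM on GlcNAc and 1.56 ± 0.550 CPM in controls, and Cyp305a1 averaged 19.4 ± 2.08 CPM on GlcNAc and 15.0 ± 5.15 CPM in controls (SD, n = 4). Neither was called by limma, and neither had an unadjusted p under 0.05. Cyp304a1 lies wholly inside grsm, a gene on the opposite strand at 90.2 ± 8.35 CPM on GlcNAc and 102 ± 14.0 CPM in controls. Whether reads of grsm were counted for Cyp304a1 was not tested. Cyp18a1, the enzyme of the CYP2 clan that inactivates 20-hydroxyecdysone, is among the 25 genes with no values in the table.

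Summed over the 60 genes, P450 transcripts took 15101, 14035, 15408 and 13218 CPM in the GlcNAc libraries, against 7361, 9449.7, 7684 and 9034 CPM in the control libraries. The lowest GlcNAc library was well above the highest control library, and the ratio of the means was 1.72. The CYP3 clan sum was 1.89 times as high on GlcNAc and the mitochondrial clan sum 1.61 times, while the CYP4 clan sum was 1.03 times as high. Cyp9b2 and Cyp28a5 together made up 36.9 ± 3.98% of P450 CPM on GlcNAc and 10.9 ± 1.08% in controls (SD, n = 4). Without this pair the sum was 9091 ± 584 CPM on GlcNAc and 7473 ± 928 CPM in controls, with a ratio of 1.22, and the lowest GlcNAc library (8374.5 CPM) was just under the highest control library (8375.5 CPM). Cyp6d5 made up 11.2 ± 1.48% of P450 CPM on GlcNAc and 25.2 ± 0.754% in controls.

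**Figure D3:**
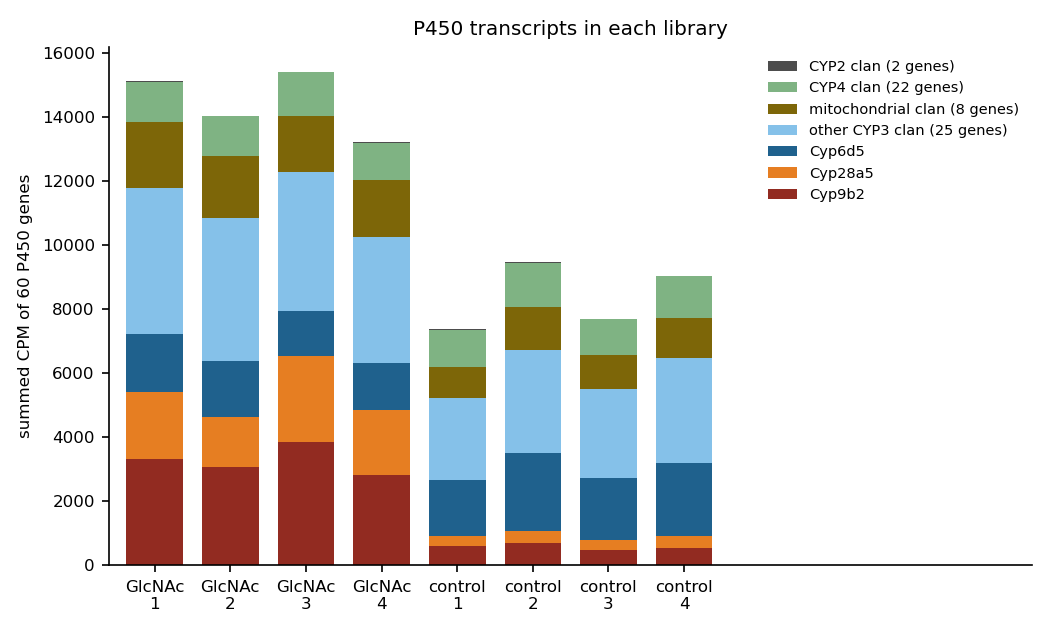
Summed CPM of the 60 P450 genes in each library, GlcNAc on the left and control on the right, stacked by gene or clan. The GlcNAc bars reach 13218 to 15408 CPM and the control bars 7361 to 9449.7 CPM, and Cyp9b2 with Cyp28a5 at the base fill most of the gap.

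Scaled to exon length, so that genes can be set side by side, the order of P450 transcripts differed between the conditions. On GlcNAc the order was led by Cyp9b2 at 1954 ± 267 CPM per kilobase, Cyp28a5 at 1184 ± 259, Cyp6d5 at 981 ± 122, Cyp12a4 at 620 ± 36.6, Cyp9f2 at 489 ± 7.81 and Cyp12a5 at 374 ± 39.5 (SD, n = 4). In controls it was led by Cyp6d5 at 1288 ± 186 CPM per kilobase, Cyp12a4 at 512 ± 73.2, Cyp9f2 at 351 ± 24.2, Cyp9b2 at 340 ± 49.6, Cyp28d1 at 226 ± 72.1 and Cyp28a5 at 194 ± 26.3. Neighbours in these orders that lie within 1 SD of each other are Cyp28a5 and Cyp6d5 on GlcNAc, and in controls Cyp9f2 and Cyp9b2, and Cyp28d1 and Cyp28a5. Cyp12a5 stood at rank 6 of the P450 genes on GlcNAc, against rank 11 in controls.

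P450 genes often lie in tandem arrays that arose by duplication. With neighbours at most 10000 bases apart counted as 1 cluster, the annotation forms 16 P450 clusters that hold 34 of the 60 genes, and 11 clusters have at least 2 genes with values. Of these 11, 6 held increases and no decrease, 3 held decreases and no increase, 0 held both, and 2 held no called gene. Counting only genes that met the expression limit in both conditions, which leaves out Cyp6g2, 10 clusters had at least 2 genes, of which 5 held increases alone, 3 decreases alone, 0 both and 2 no call. Single genes were called higher in 8.75% and lower in 6.6% of the whole table, and no share for clusters of other genes was computed. Within clusters the changes were uneven. The largest cluster, on arm 2R from 14871366 to 14903095, has 9 genes, of which 7 have values. Cyp6a17, Cyp6a23, Cyp6a20 and Cyp6a21 rose there, with log2 fold changes of 1.49, 1.36, 0.64 and 0.46. In the same array Cyp6a9 averaged 187 ± 7.23 CPM on GlcNAc and 189 ± 29.99 CPM in controls (SD, n = 4) and Cyp6a8 and Cyp317a1 were not called either. Cyp9b2 and Cyp9b1, 468 bases apart, both rose, but by 2.52 and 0.86. The pair Cyp12a5 and Cyp12a4 had log2 fold changes of 1.84 and 0.28. Cyp6g2 and Cyp6g1, whose ends overlap on opposite strands, had 1.49 and 0.05.

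**Figure D4:**
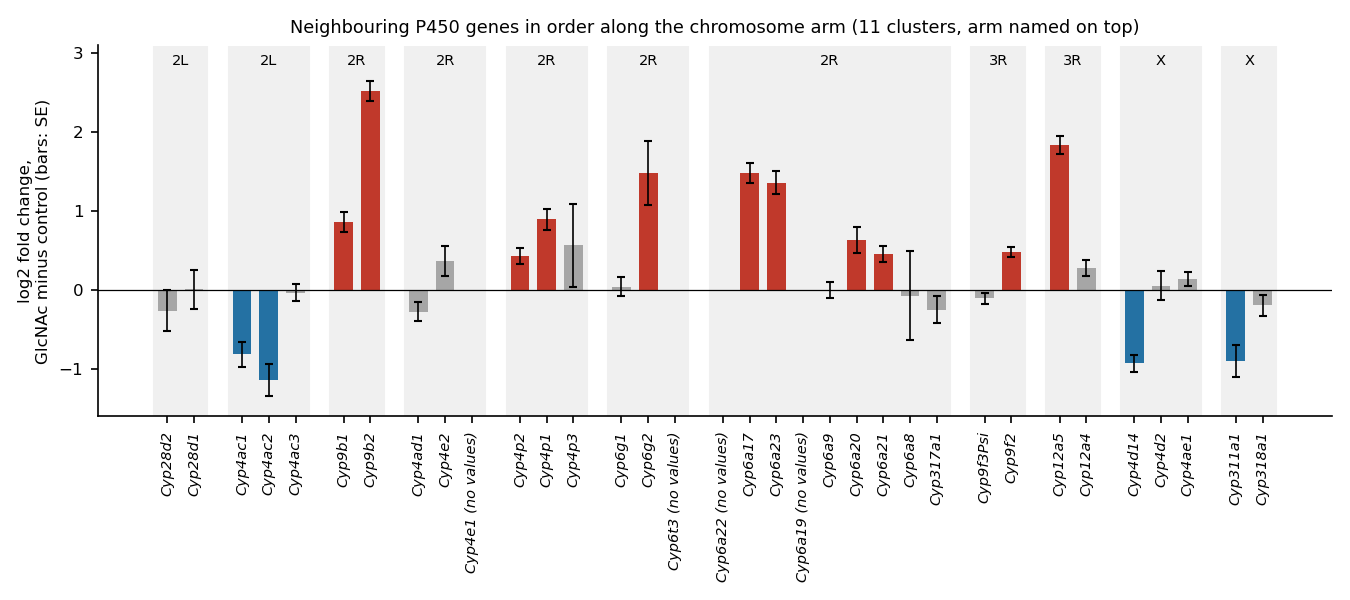
Log2 fold change (GlcNAc minus control, with SE) of P450 genes in the 11 clusters with at least 2 measured genes, in their order along the chromosome arm named on top. Red bars are genes called higher, blue bars genes called lower and grey bars uncalled; no cluster holds both red and blue.

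Most genes listed as electron suppliers of P450 enzymes were also higher. Of 7 listed redox partner symbols 6 were in the table by exact match. Of these 6 genes 5 rose and 0 fell, where 8.75% of all genes were called higher and 6.6% lower. Their median log2 fold change was 0.90, beside 0.01 for all genes. The counts and the median include Cyt-b5-r (3.04), which was listed only for its cytochrome b5 domain. Whether it gives electrons to P450 enzymes was not tested. Cpr, the reductase that serves all microsomal P450 enzymes, had 1578, 1475, 1752 and 1498 CPM in the GlcNAc libraries, against 755, 937, 698 and 778 CPM in the control libraries. It was 2.00-fold higher without overlap (log2 fold change 1.00 ± 0.10 SE, adjusted p = 0.000158). Cyt-b5 had 1093, 896, 1219 and 1022 CPM in the GlcNAc libraries, against 614, 610.5, 588 and 574 CPM in the control libraries, likewise apart (log2 fold change 0.82 ± 0.09 SE, adjusted p = 0.000323). The mitochondrial ferredoxin genes Fdx2 and Fdx1 averaged 207 ± 17.3 CPM on GlcNAc and 104 ± 5.46 CPM in controls, and 13.5 ± 1.92 CPM on GlcNAc and 9.45 ± 0.484 CPM in controls (SD, n = 4), with adjusted p values of 2.48e-05 and 0.0157. Fdx2 and its relatives also serve iron-sulfur cluster assembly. dare, the ferredoxin reductase, was not called (34.8 ± 3.68 CPM on GlcNAc and 37.4 ± 2.499 CPM in controls, adjusted p = 0.501).

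Cyt-b5-r had the largest change of the list. It encodes a protein with a cytochrome b5 domain beside a desaturase-like domain, and it was listed here for the b5 domain. It had 59.4, 52.6, 29.5 and 31.0 CPM in the GlcNAc libraries, against 3.18, 9.003, 3.06 and 7.14 CPM in the control libraries. Every GlcNAc library exceeded every control library, an 8.22-fold difference (log2 fold change 3.04 ± 0.37 SE, adjusted p = 0.000511).

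Of 10 listed gene symbols of heme synthesis and breakdown, 6 were in the table. Matching was by exact symbol, so a gene listed under another name would count as absent. Of the 6 genes 2 rose and 0 fell, beside 8.75% and 6.6% of all genes. Their median log2 fold change was 0.35, and that of all genes was 0.01. Alas, which catalyses the first step of heme synthesis, had 401, 295, 461 and 346 CPM in the GlcNAc libraries, against 218, 176, 211 and 196 CPM in the control libraries. Its libraries did not overlap, and the increase was 1.86-fold (log2 fold change 0.89 ± 0.13 SE, adjusted p = 0.00127). The hydroxymethylbilane synthase gene (FBgn0010786) had 208, 208, 257 and 184 CPM in the GlcNAc libraries, against 75.04, 88.3, 64.9 and 74.4 CPM in the control libraries, 2.83-fold higher (adjusted p = 2.82e-05). The enzyme between these steps, Pbgs, averaged 3.02 ± 0.659 CPM on GlcNAc and 1.89 ± 0.246 CPM in controls (SD, n = 4) and missed the threshold (adjusted p = 0.0702). Updo, Ppox and the heme oxygenase gene Ho were not called, with log2 fold changes of -0.16, 0.00 and 0.05.

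**Figure D5:**
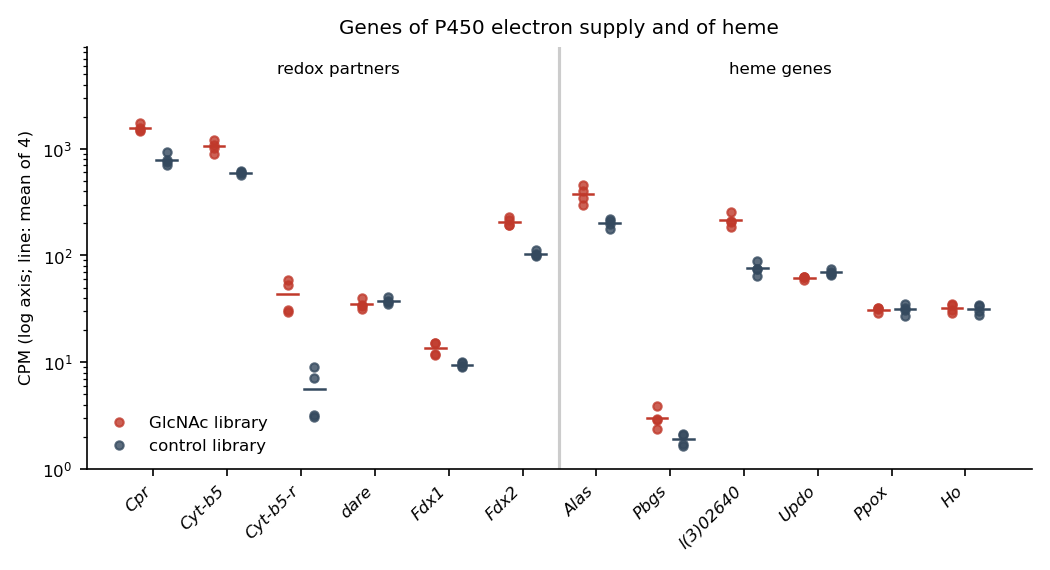
CPM on a log axis in each GlcNAc library (red) and control library (dark blue) for 6 redox partner genes and 6 heme genes; lines are means of 4 libraries. Cpr, Cyt-b5, Cyt-b5-r, Fdx2, Fdx1, Alas and the hydroxymethylbilane synthase gene (the third of the heme genes) were called higher on GlcNAc.

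Of 6 listed genes known to control detoxification 5 were in the table, and 1 was called higher (Hr96) and 1 lower (Keap1), where 8.75% of all genes were called higher and 6.6% lower. Hr96, a nuclear receptor that responds to xenobiotics and lipids, had 153, 144, 174 and 147 CPM in the GlcNAc libraries, against 116, 122, 112 and 122 CPM in the control libraries (log2 fold change 0.39 ± 0.07 SE, adjusted p = 0.00488). Keap1, which holds the transcription factor Cnc in check, averaged 43.5 ± 3.44 CPM on GlcNAc and 66.4 ± 16.8 CPM in controls (SD, n = 4; log2 fold change -0.58 ± 0.15 SE, adjusted p = 0.028). The call of Keap1 was lost without GlcNAc replicate 1 (adjusted p = 0.0781), 2 (0.0523) or 3 (0.059) or without control replicate 4 (0.0825). cnc itself, its partner maf-S, and tgo, the partner of the aryl hydrocarbon receptor Ss, were not called, and cnc averaged 397 ± 15.3 CPM on GlcNAc and 363 ± 27.7 CPM in controls (SD, n = 4).

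Some fly P450 enzymes of ecdysteroid synthesis carry other names. Of 9 listed genes of that pathway, shd and woc were in the table. shd, the mitochondrial P450 that converts ecdysone to 20-hydroxyecdysone, had 8.28, 7.77, 4.64 and 6.46 CPM in the GlcNAc libraries, against 13.7, 27.3, 25.2 and 25.0 CPM in the control libraries. Its GlcNAc values were all below its control values, 3.33-fold lower on average (log2 fold change -1.73 ± 0.24 SE, adjusted p = 0.0011). woc, a transcription factor gene, was not called.

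Markers of other tissues were read beside these values. Of 9 Malpighian tubule markers 4 were in the table, with sums of 253 to 391 CPM on GlcNAc and 270.3 to 338 CPM in controls. Of these only Alp4 was called, at 69.3, 39.0, 33.2 and 14.6 CPM in the GlcNAc libraries, against 13.9, 4.31, 8.97 and 3.44 CPM in the control libraries (log2 fold change 2.37 ± 0.51 SE, adjusted p = 0.011), while the tubule genes Uro, CapaR and ct have no values. By limma 0 of 3 measured fat body genes and 0 of 5 enterocyte genes were called (0 and 1 at an unadjusted p under 0.05), and the 6 ovary markers have no values in the table. Enterocyte marker sums were 19112 to 21080 CPM on GlcNAc and 21019 to 25381 CPM in controls, and nearly all of this was alphaTry, at 17998 to 19909 CPM in the GlcNAc libraries and 19912 to 24031 CPM in the control libraries. The log2 fold changes of the others were 0.21 (nub), 0.33 (mex1), -0.12 (GATAe) and -0.22 (Myo31DF). Muscle markers summed to 543 to 829.8 CPM on GlcNAc and 675 to 985 CPM in controls, with 1 of 6 lower (Act57B). Enteroendocrine markers summed to 146 to 167 CPM on GlcNAc and 133 to 166 CPM in controls, with 2 of 5 higher (AstA and Dh31). AstC, the most abundant of them, was not called (log2 fold change -0.15), nor were Tk (0.33) and NPF (0.21). Over all genes 8.75% were called higher and 6.6% lower. Progenitor markers summed to 80.0 to 113 CPM on GlcNAc and 82.6 to 98.5 CPM in controls, with 0 of 4 called (also 0 at an unadjusted p under 0.05). The part of cell composition in the P450 results was not tested.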

How the data were processed

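RNA-seq libraries (single-end, stranded) came from 4 GlcNAc and 4 control samples. The authors removed low-quality bases, aligned with TopHat2 2.1.0 to the FlyBase genome, counted exonic reads by strand with HTSeq and kept genes over 1 CPM in at least 3 of 4 replicates of a condition. They deposited log2 CPM values with an offset of 0.5 read, and the steps of these values gave back whole reads for 100% of 61368 values (tolerance 0.01 read). The deposited table also holds the authors' log2 fold changes, t statistics and p-values, which were not used.

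Conditions were compared on the deposited log2 CPM with limma 3.58.1 in R 4.3.3 (lmFit, eBayes with a trend), Benjamini-Hochberg adjusted over 7671 genes. Fold changes are on this log2 scale. CPM means and SDs were taken over libraries. Coordinates are from the BDGP6 annotation (Ensembl). Named genes are all called P450 genes (the first 12 by size with every library), the 8 most abundant, Cyp18a1, Cyp4g1, Cyp6g1 and the Cyp12d1 pair, and called genes of the 4 accompanying lists. Other genes were named after their values were seen. The P450 genes, lists and tests were chosen with earlier results of these data known. Alternatives were a replicate block, each library left out, voom on recovered reads, a 10 CPM minimum, a 2 CPM pseudocount, library totals, quantile normalization and a 1.5-fold limit. Promoter motifs were planned but not analysed here.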

Additional observations from a re-analysis of the deposited data

Results flagged for a closer look

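In 3 of 120 sets of 4 libraries (each P450 gene in each condition), 1 library stood apart from the other 3 by Dixon's criterion, and all 3 sets were GlcNAc libraries. Chance alone gives such a library in about 1 in 20 sets. Cyp28d2 had 1.48 CPM in GlcNAc replicate 4 and 1.99 to 2.11 CPM in the other GlcNAc libraries, a difference of few reads. Cyp4d14 had 61.4 CPM in GlcNAc replicate 2 and 75.6 to 78.3 CPM in the others, all below the control libraries. Cyp9f2 had 839.9 CPM in GlcNAc replicate 3 and 867.1 to 867.9 CPM in the others, which lay unusually close together.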

How the results depend on the processing

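Under every alternative tried 22 to 30 of the P450 genes were called, against 29 with all libraries and the deposited scaling. Leaving out 1 library gave 25 to 30 calls (18 to 21 higher, 7 to 9 lower), where 852 to 1111 of all genes were called. The median log2 fold change of the P450 genes was then 0.18 to 0.34. voom on the recovered reads called 29 (1173 of all genes), a 10 CPM minimum 26 (1118 of 5560 genes) and a 2 CPM pseudocount 28 (1188 of all genes). Library totals gave 30 calls (1274 of all genes), quantile normalization 29 (1202 of all genes) and a 1.5-fold limit 22. That limit left 463 of the 1177 calls over all genes. Apart from the 1.5-fold limit, 25 of the 29 calls held under each alternative that tested the gene. The 4 lost at least once among those alternatives were Cyp4e3, Cyp4p2, Cyp6a20 and Cyp6g2. With the replicate number as a block 30 P450 genes were called (23 higher, 7 lower), Cyp4s3 being added (adjusted p = 0.0398). Over all genes the block gave 1324 calls, against 1177 without it. Same-numbered libraries deviated together with correlations of 0.21, 0.40, 0.15 and -0.06 for numbers 1 to 4. GlcNAc replicates 1 and 2 were closest to the control of the same number. GlcNAc replicate 3 was closest to control replicate 1 (0.17) and GlcNAc replicate 4 to control replicate 3 (0.18). The paper states that samples of the conditions were taken in parallel. These values do not settle whether the numbers mark pairs, and the main test did not pair them. Signs turned only in uncalled genes: with library totals Cyp4ac3 (0.023) and Cyp6a9 (0.051), and with quantile normalization Cyp28d1 (-0.031), Cyp313a4 (-0.022), Cyp4g15 (-0.076) and Cyp6a9 (0.0024). Over single libraries left out, the log2 fold change spanned zero for Cyp28d1 (-0.19 to 0.19), Cyp313a4 (-0.10 to 0.15), Cyp4ac3 (-0.10 to 0.025), Cyp4d2 (-0.10 to 0.19), Cyp4g1 (-0.13 to 3.15), Cyp4g15 (-0.15 to 0.12), Cyp6a8 (-0.40 to 0.46), Cyp6a9 (-0.088 to 0.092) and Cyp6g1 (-0.038 to 0.15). Library totals moved the median of all genes to 0.07. The causes were not tested. Genes near 1 CPM rest on few reads at this depth, and 9 P450 genes had means under 3 CPM.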
